A study of Mus musculus with 28 samples.

Results

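The transfer RNAs for aspartate, asparagine, histidine and tyrosine are the cytoplasmic tRNAs of mammals that can carry queuosine at the wobble base, and their reads were followed here in the small RNA of mouse plasma extracellular vesicles (EVs), the membrane particles that cells release into blood. The members were every row of the non-coding RNA count table whose name begins with tRNA-Asp, tRNA-Asn, tRNA-His or tRNA-Tyr. This gave 51 of the 464 tRNA rows and of the 18710 rows in all: 16 for Asp-GTC, 13 for Asn-GTT, 11 for Tyr-GTA, 10 for His-GTG and 1 for His-ATG. Of the 51 rows 45 had enough counts to be tested, and the 6 others (3 Asn-GTT, His-ATG, 1 His-GTG and 1 Tyr-GTA) are given as counts only. The last 3 letters of each name are the anticodon, and the number after it names an isodecoder, a tRNA sequence that may be encoded by several gene copies.

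The study asked how neuromuscular electrical stimulation (NMES) of the hind legs changes vesicle RNA, in wild-type (WT) mice and in heterozygotes for a Klotho deletion allele (KlHET, strain B6;129S5-Kl tm1Lex/Mmucd), which lack 1 copy of the gene in all tissues. Under 2.5% isoflurane, NMES mice were stimulated at 9 mA in 5 sessions on alternate days, with 10 stimulations in each of 2 sets on either leg, and control mice were kept under the same anesthetic for 15 min on those days. Blood was taken 24 h after the last session, after Avertin. There were 6 WT NMES, 6 WT control, 8 KlHET NMES and 8 KlHET control libraries, 1 per mouse, and all WT library names begin with A while all KlHET names begin with J, so that genotype and any separate handling of the 2 sets cannot be told apart.

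All 4 of these tRNAs read codons that end in U or C, with an anticodon whose letters are G, U and any base. In mammals the tRNA guanine transglycosylase, a pair of the QTRT1 and QTRT2 proteins, swaps the G at the wobble position for queuine, a base that animals cannot make and take up from food and gut bacteria. The queuosine of tRNA-Tyr is further joined to galactose and that of tRNA-Asp to mannose, and the modification is known to protect the anticodon loop from cutting by ribonucleases such as angiogenin, which makes long tRNA fragments. Plasma is known to hold tRNA fragments in large amounts. The counts neither show whether a base was modified nor whether a read came from a fragment or a whole tRNA.

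RefSeq (GRCm38.p6, the assembly also called mm10) lists 16 Asp-GTC, 13 Asn-GTT, 10 His-GTG, 1 His-ATG and 10 Tyr-GTA genes under names that the table's rows do not use, so no row was paired with a gene. Many of them lie in clusters. Chromosome 1 holds 5 Asp-GTC genes and 1 Asn-GTT gene between 171033942 and 171102442. Chromosome 3 holds 6 His-GTG and 6 Asn-GTT genes between 96322074 and 96500437, and 6 Tyr-GTA genes lie on chromosome 13 between 23425646 and 23467165. The genes are 72 bases long for Asp and His-GTG, 74 for Asn, and 86 to 93 for Tyr, whose genes contain an intron.

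The sequences below show where the base that queuine replaces sits. Both come from RefSeq sequence of GRCm38.p6 and run from the 5′ end of the gene, and capitals mark the anticodon, whose first letter is the G that is replaced. The His-GTG gene n-THgtg7 is given for 62 of its 72 bases (chr3:96452495-96452556, plus strand, anticodon at bases 34 to 36), and the Asn-GTT gene n-TNgtt6 for 47 of its 74 bases (chr1:171033969-171034015, minus strand, anticodon at bases 35 to 37). No exon, intron or UTR of GENCODE vM21 overlaps either stretch.
n-THgtg7: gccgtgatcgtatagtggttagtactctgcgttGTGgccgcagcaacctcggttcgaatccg
n-TNgtt6: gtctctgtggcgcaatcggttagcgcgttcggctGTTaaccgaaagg

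Libraries held 531261 to 3389206 counts (median 887415), of which 7.99% to 63.3% were on tRNAs. Reads that match several gene copies were counted on each: 26 of the 51 member rows were identical in all 28 libraries to another row, and the 51 rows held 31 different profiles. The 13 rows of Asp-GTC-1, for example, held nearly the same counts, with totals of 2543 to 2578 per row. Values below are therefore also given with each isodecoder counted once, by the highest count among its copies. Levels are given as total CPM, counts per 1000000 counts of a library, or as tRNA CPM, counts per 1000000 tRNA counts after TMM scaling, the scale of the tests. WT control library 5 and KlHET control libraries 2 and 8 were known from earlier results to stand apart, and results that rest on them are given with and without them. tRNAs took 63.3% of counts in WT control library 5, and the marker sum below was lowest in KlHET control library 2 and highest of its group in KlHET control library 8. The 14 microRNA markers of blood cells, liver, muscle, endothelium and neurons all had a row. Their sum was 2383 to 3701 total CPM in WT NMES, 2458 to 13918 in WT control, 1050 to 2439 in KlHET NMES and 97.2 to 4718 in KlHET control libraries. The neuronal miR-124-3p was at 0 in 23 libraries and the leukocyte miR-142a-3p in 20, whereas the red cell miR-451a and the liver miR-122-5p were above 0 in all 28.

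Queuosine tRNAs made up a small share of the vesicle tRNA. They took 0.667% to 5.78% of tRNA counts (median 2.91%, n = 28), with the lowest share in KlHET control library 7 (95% Wilson interval 0.647% to 0.687%) and the highest in KlHET control library 4 (5.64% to 5.92%). Such intervals cover counting error only. The share ranged from 1.30% to 4.80% in WT NMES and from 1.60% to 5.43% in WT control libraries, and from 2.08% to 4.34% in KlHET NMES and from 0.667% to 5.78% in KlHET control libraries, so the groups overlapped throughout. With each isodecoder counted once the median share was 2.31%. Summed over libraries, His-GTG held 108745 counts and ranked 8 among 55 anticodons, Tyr-GTA held 47826 (rank 10), Asp-GTC 37100 (rank 13) and Asn-GTT 4473 (rank 35). WT control library 5 alone gave 34536 of the His-GTG and 10408 of the Asp-GTC counts, but 1935 of the Tyr-GTA and 180 of the Asn-GTT counts.

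The order of the 4 changed once repeated copies were set aside. Tyr-GTA then held 18469 counts, His-GTG 14398, Asp-GTC 6254 and Asn-GTT 1015. These are sums over isodecoders, so a read that matches several isodecoders may still count more than once. By largest single isodecoder His-GTG led, with 13527 counts for His-GTG-2 against 6631 for Tyr-GTA-1. Per 100 bases of gene, with isodecoders counted once, the median level over libraries was 799 total CPM for Tyr-GTA (253 to 1231), 358 for His-GTG (15.9 to 2123), 228 for Asp-GTC (104 to 725) and 46.1 for Asn-GTT (8.01 to 130). The gene length used for Tyr-GTA, 89 bases, included the intron. The ranges of Tyr-GTA, His-GTG and Asp-GTC overlapped. That of Asn-GTT overlapped those of His-GTG and Asp-GTC and lay below that of Tyr-GTA. Summed over isodecoders counted once, Tyr-GTA was the most counted of the 4 in 21 of 28 libraries, among them all 8 KlHET NMES libraries. His-GTG was so in 6 and Asp-GTC in 1. The lead depended on the measure. With all rows summed, His-GTG exceeded Tyr-GTA in KlHET NMES library 5 (43.0% of queuosine tRNA counts against 30.2%). It also did so in KlHET NMES library 8 (58.7% against 26.8%), while Tyr-GTA led in the other KlHET NMES libraries.

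**Figure D1:**
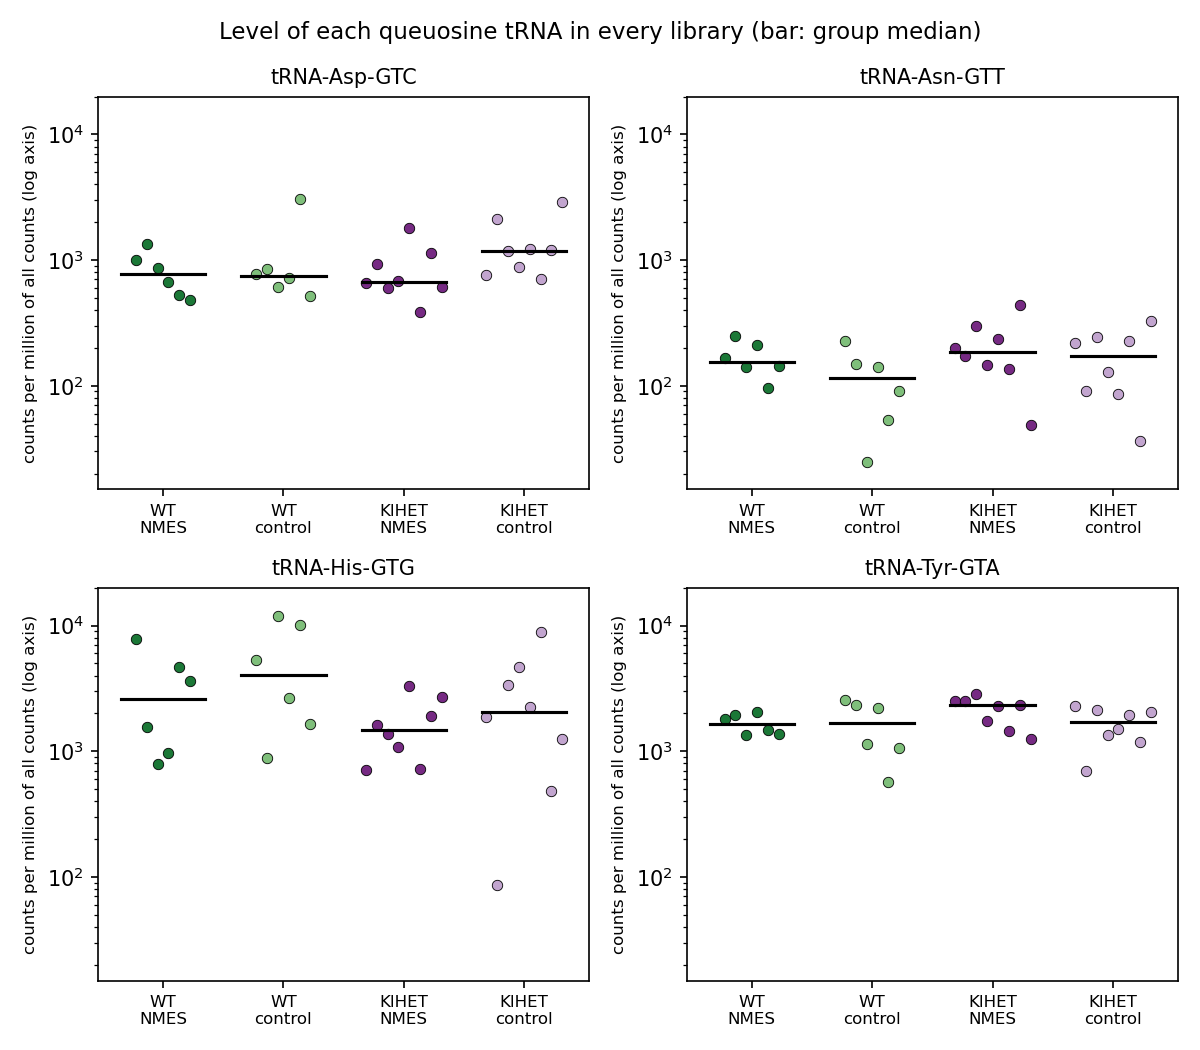
Total CPM in each library (log axis) for the 4 queuosine anticodons, with 1 point per library and a bar at the group median. Tyr-GTA libraries lie close together, between 570.9 and 2844, whereas His-GTG libraries run from 87.0 to 11814.

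After TMM scaling, tRNA-His varied most between libraries and tRNA-Tyr least. Within groups, the SD of the log2 level, scaled by TMM over tRNAs, was 0.38 for Tyr-GTA, 0.83 for Asn-GTT, 0.99 for Asp-GTC and 1.26 for His-GTG. Among the 47 anticodons with enough counts to test, ordered from the smallest spread, these took places 5, 25, 29 and 36. As an unscaled share of tRNA counts, Tyr-GTA ran from 0.0901% in WT control library 5 to 1.89% in KlHET NMES library 3. That was wider than the range of Asp-GTC, 0.112% in WT NMES library 6 to 1.74% in KlHET control library 2. The mix within a library, which no scaling between libraries touches, also varied. His-GTG made up 1.78% of queuosine tRNA counts in KlHET control library 2 (18 of 1012 counts, 95% Wilson interval 1.13% to 2.79%) and 71.8% in WT control library 3 (1289 of 1795, 69.7% to 73.8%). Asp-GTC ranged from 5.40% in WT control library 3 to 49.6% in KlHET control library 2 (46.5% to 52.7%), Tyr-GTA from 11.8% in WT control library 5 to 79.5% in KlHET NMES library 1, and Asn-GTT from 0.279% in WT control library 3 to 6.48% in KlHET NMES library 7.

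**Figure D2:**
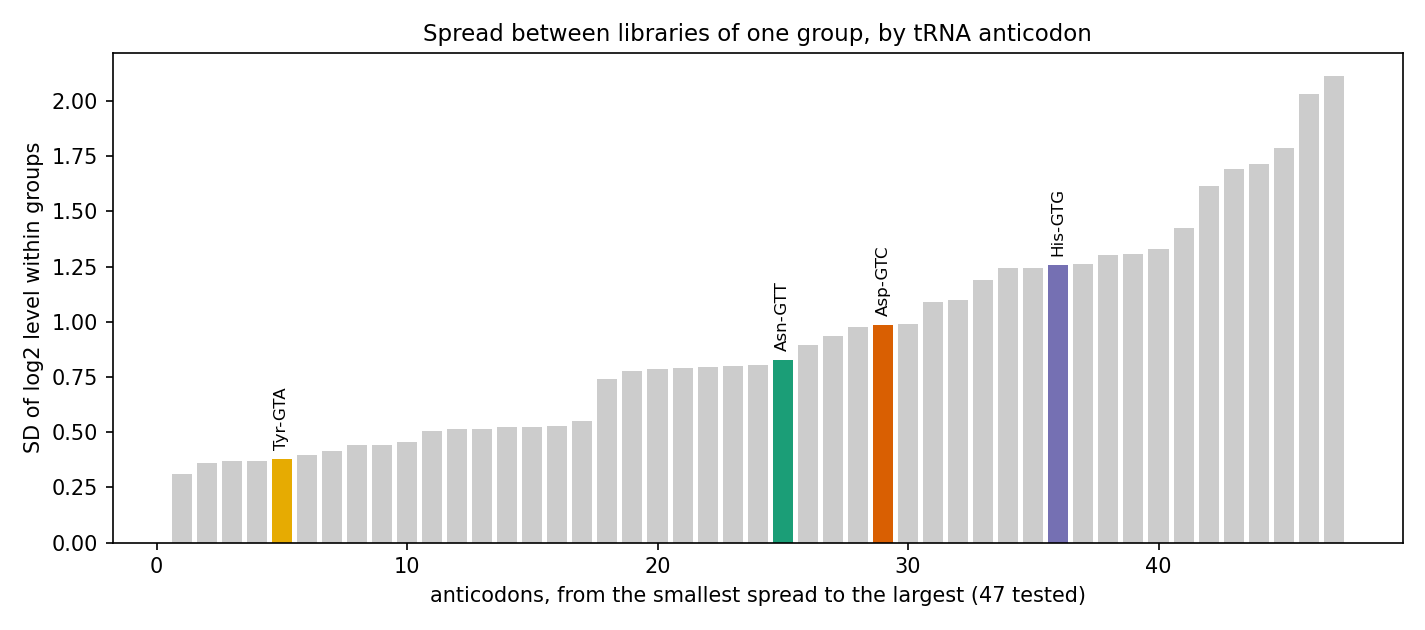
SD of the log2 level after TMM scaling, within groups, for the 47 tested tRNA anticodons from the smallest to the largest. The queuosine tRNAs are coloured and named. Tyr-GTA is among the steadiest with 0.38, and His-GTG lies in the upper part with 1.26.

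**Figure D3:**
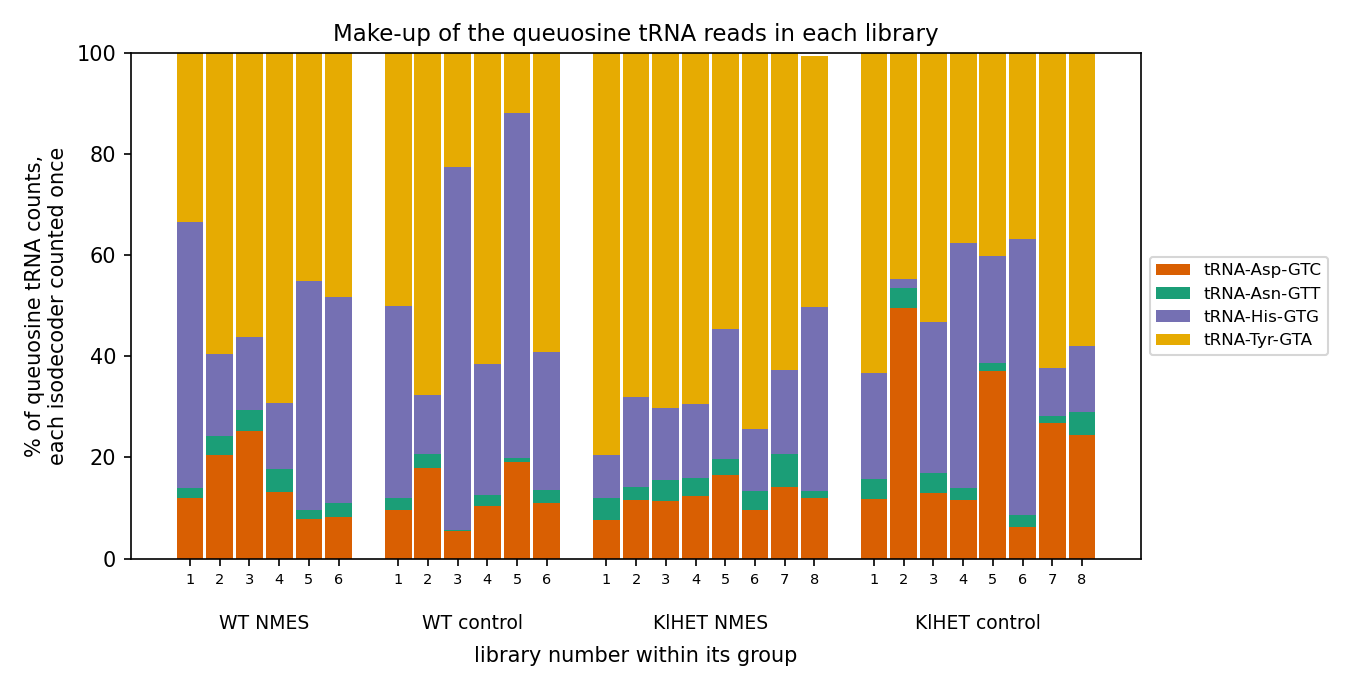
Share of each anticodon among the queuosine tRNA counts of a library, with each isodecoder counted once and libraries numbered within their groups (His-ATG, seen in 1 library, is not drawn). Tyr-GTA leads in all 8 KlHET NMES libraries, and Asp-GTC reaches 49.6% in KlHET control library 2.

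tRNA-Asp, which brings aspartate to the GAU and GAC codons and whose queuosine is joined to mannose, was the one queuosine tRNA that passed a test for NMES. In KlHET mice Asp-GTC was at 1881, 3351 and 5148 tRNA CPM in NMES libraries (lowest, median and highest, here and below), against 2882, 5015 and 49962.5 in control libraries. Control libraries 2 (49962.5) and 8 (14259) lay far above the other control libraries, and library 7 (8357) was also above all NMES libraries. The remaining control libraries overlapped the NMES libraries, and 7 of the 8 NMES libraries were below the control median. Means with SD were 3322 ± 986 tRNA CPM for NMES and 11579 ± 15952 tRNA CPM for control libraries (n = 8 per group). The log2 difference was -1.80 (SE 0.56), with an adjusted p of 0.023 by edgeR's quasi-likelihood test over 47 anticodons. In that comparison 1 of the 4 tested queuosine anticodons passed, and so did 9 of the 47 anticodons in all (19.1%), all lower after NMES. On this scale Asp-GTC is measured relative to the other tRNAs. Less tRNA-Asp per vesicle and fewer of the vesicles that carry it cannot be told apart in such counts.

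The size of that difference depended on scaling and on few libraries. Asp-GTC was at 385, 669.9 and 1807 total CPM in KlHET NMES libraries and at 711, 1189.97 and 2912 total CPM in KlHET control libraries. Tested on that scale, the difference was -0.69 (adjusted p = 0.41 by edgeR). With TMM over all RNA classes it was -1.63 (adjusted p = 0.0498 by edgeR), just under the threshold. It was -1.29 with DESeq2 (adjusted p = 0.085) and -1.44 with no filter (adjusted p = 0.051 by edgeR). With TMM over tRNAs, the difference was -0.51 without WT control library 5 and KlHET control libraries 2 and 8 (adjusted p = 0.37 by edgeR). Without KlHET control library 2 alone it was -0.88 (adjusted p = 0.41). The test was also missed in 15 other refits that each left out 1 library: WT NMES libraries 1 to 6, WT control libraries 1 to 4 and 6, KlHET NMES libraries 3, 4 and 6, and KlHET control library 5, with values from -1.44 to -1.68. WT libraries enter the KlHET difference only through the scaling and the shared spread.

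KlHET control library 2 differed from the others of its group in more than Asp-GTC. Gly-GCC took 0.812% of its tRNA counts, against a median of 28.8% in KlHET control libraries. Its 14 markers summed to 97.2 total CPM, against 930 to 4718 in the other KlHET control libraries. Its TMM factor in the anticodon fit was 0.35, but that of KlHET control library 7 was lower, at 0.33. The marker sum was 1050 to 2439 (median 1965) in KlHET NMES and 97.2 to 4718 (median 1299) in KlHET control libraries, and tRNAs made up 7.99% to 29.98% of all counts in KlHET NMES and 12.1% to 43.6% in KlHET control libraries. The part of these measures in the Asp-GTC difference was not tested.

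**Figure D4:**
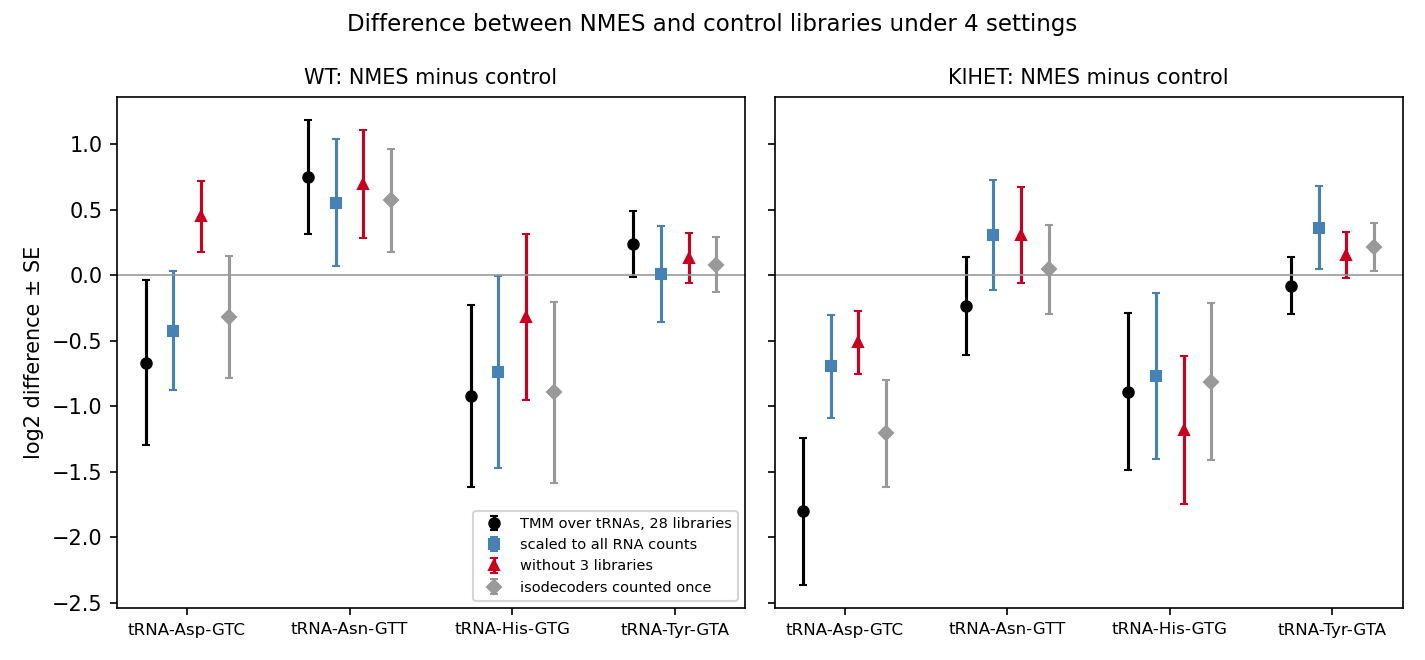
Log2 difference (NMES minus control) with its SE for the 4 anticodons in WT and in KlHET mice under 4 settings: TMM over tRNAs with all 28 libraries, scaling to all RNA counts, without 3 libraries, and with isodecoders counted once. In KlHET mice Asp-GTC stays below 0, from -1.80 to -0.51, and in WT mice it lies at -0.67 with all libraries and at 0.45 without 3.

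At the level of rows, 14 of the 45 member rows tested were lower in KlHET NMES than in KlHET control libraries, and 54 of all 341 tRNA rows passed (15.8%), all lower. At an unadjusted p under 0.05 there were 17 member rows and 102 rows in all (29.9%). The 14 rows stood for 2 isodecoders, since 13 of them were the copies of Asp-GTC-1, and the other was Asp-GTC-2-1. The median log2 difference was -0.88 over the 45 member rows and -0.48 over the 341 rows, where copies that share reads each count. With isodecoders counted once, the median was -0.077 over the 13 members and -0.112 over all 170. Asp-GTC-1-1 was at 137, 239 and 386 tRNA CPM in NMES libraries and at 198, 332 and 3662 in control libraries, a log2 difference of -1.76 (SE 0.57, adjusted p = 0.030 by edgeR). Leaving out KlHET control library 2 made it -0.78 (adjusted p = 0.47), KlHET control library 8 -1.18 and KlHET control library 7 -1.31. It also missed the threshold in 7 other refits, without WT control library 4, KlHET control library 6 or KlHET NMES library 1, 2, 3, 6 or 8, with values from -1.77 to -1.30. The high WT library for this isodecoder was control library 5, which was also sequenced deepest. It had 769 counts against 35 to 45 in the other WT control libraries, or 227 total CPM against 35.8 to 51.9.

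Asp-GTC-2-1 was at 50.6, 147 and 200.5 tRNA CPM in KlHET NMES libraries and at 22.2, 160 and 2141 in KlHET control libraries. The groups overlapped and their medians lay close together, with KlHET control libraries 2 (2141) and 5 (1677) far above the rest. The log2 difference was -2.15 (SE 0.64, adjusted p = 0.025 by edgeR). KlHET control library 5 was low for Asp-GTC-1 but had 499 counts of Asp-GTC-2 with copies counted once, which was 80.1% of its Asp-GTC counts (95% Wilson interval 76.8% to 83.04%), beside 70 counts of Asp-GTC-1. Without control library 5 the difference was -1.72 (adjusted p = 0.057), and without control library 2 it was -1.56 (adjusted p = 0.27). It also missed the threshold without WT control library 4, KlHET NMES library 1, 2 or 6, or KlHET control library 7, at -2.11 to -1.83. With copies counted once, 1 of 13 isodecoders passed, Asp-GTC-2 at -1.89 (SE 0.62, adjusted p = 0.045), Asp-GTC-1 was at -1.37 (SE 0.54, adjusted p = 0.11), and 23 of 170 tRNA isodecoders did so in all (13.5%).

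Asp-GTC-3 and Asp-GTC-4, each read from 1 row, had smaller differences that missed the threshold. Asp-GTC-4-1 had a log2 difference of -1.28 (SE 0.54, adjusted p = 0.097) and Asp-GTC-3-1 one of -0.59 (SE 0.41, adjusted p = 0.36) between KlHET NMES and control libraries. Over all 28 libraries, Asp-GTC-1 made up a median of 35.8% of Asp-GTC counts with copies counted once, Asp-GTC-3 24.3%, Asp-GTC-2 19.99% and Asp-GTC-4 17.1%. Asp-GTC-2 ranged the most, from 4.00% in KlHET control library 6 (4 of 100 counts) to the 80.1% of KlHET control library 5.

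**Figure D5:**
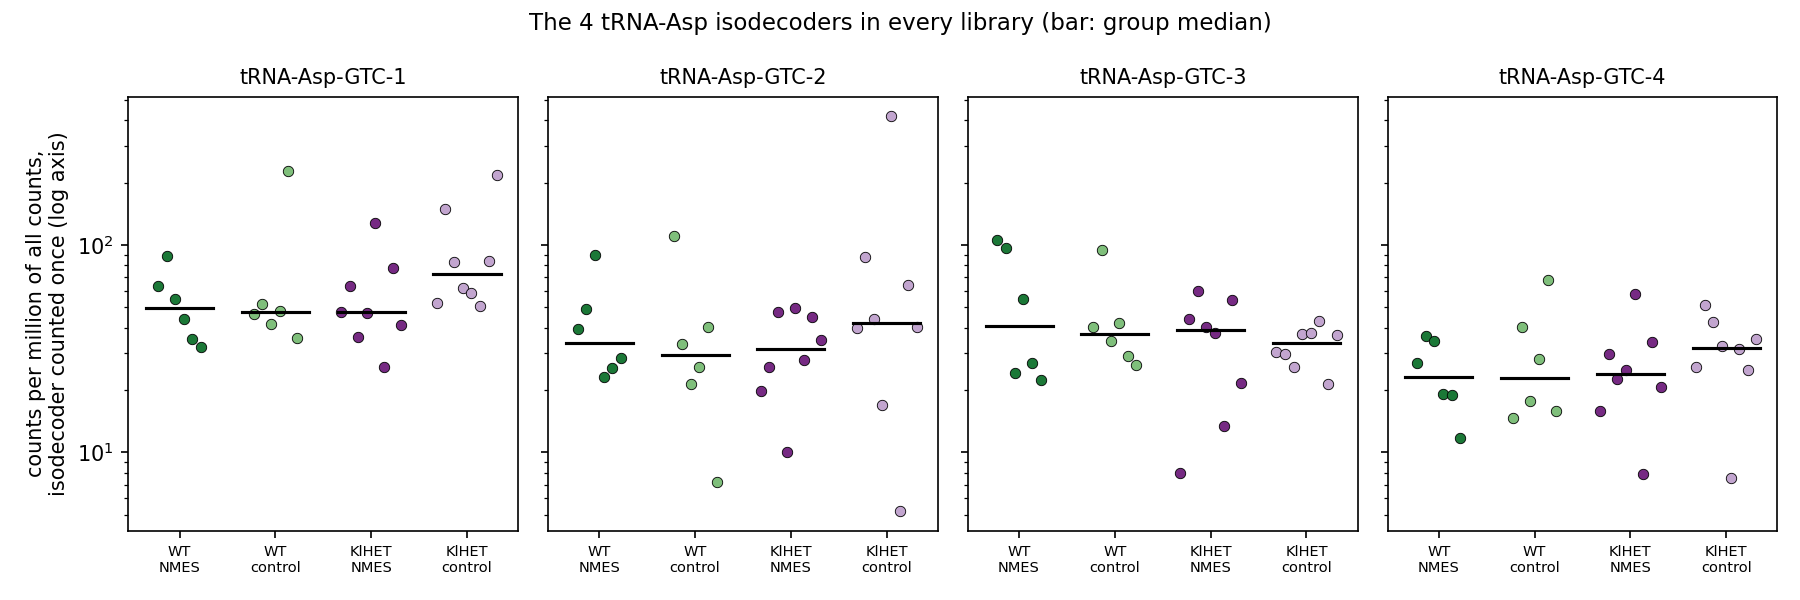
Total CPM in each library (log axis) for the 4 tRNA-Asp isodecoders counted once, with a bar at the group median. The libraries far above their group differ between isodecoders: WT control library 5 with 227 for Asp-GTC-1, and KlHET control library 5 with 418 for Asp-GTC-2.

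In WT mice no queuosine tRNA passed, and neither did any of the 341 rows or 47 anticodons (0%) by edgeR. At an unadjusted p under 0.05 there were 0 of 45 member rows and 44 of 341 rows, and 0 of 4 member anticodons and 5 of 47. DESeq2 called 0 of the 45 member rows and 7 of the 320 rows for which it gave an adjusted p (2.19%), all lower. The smallest unadjusted p of a member row was that of Tyr-GTA-5-1, which had a log2 difference of 0.81 (SE 0.42, adjusted p = 0.38 by edgeR), with 144, 210.1 and 285 tRNA CPM in WT NMES libraries and 72.8, 104 and 233 tRNA CPM in WT control libraries. Asp-GTC was at 2743, 4082 and 6367 tRNA CPM in WT NMES libraries and at 2806, 3369 and 26238 in WT control libraries. The log2 difference of -0.67 (SE 0.63, adjusted p = 0.77) turned to 0.45 without WT control library 5 (adjusted p = 0.89). The median difference was -0.52 over the 45 member rows and -0.13 over the 341 rows, where copies that share reads each count. With isodecoders counted once, it was 0.016 over the 13 members and -0.095 over all 170.

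With both genotypes weighted equally, Asp-GTC was lower after NMES, at -1.23 (SE 0.42, adjusted p = 0.041 by edgeR), as 1 of 4 member anticodons, and 8 of 47 anticodons passed in all (17%). Without WT control library 5 the value was -0.49 (adjusted p = 0.43), without KlHET control library 2 -0.77 (adjusted p = 0.14), and without both and KlHET control library 8 it was -0.03 (adjusted p = 0.97). The test was also missed without WT NMES library 1, 2, 3, 5 or 6, WT control library 2 or 3, KlHET NMES library 1, 2 or 8, or KlHET control library 8, with values from -1.36 to -1.02. By row, 0 of the 45 members and 0 of the 341 rows passed by edgeR (0%), whereas 14 members and 82 rows (24%) had an unadjusted p under 0.05. DESeq2 called 13 member rows and 34 of 320 rows in all (10.6%), all lower. Copies of Asp-GTC-1 alone make up 13 of the member rows. With isodecoders counted once, 2 of 13 members (Asp-GTC-1 and Asp-GTC-4) had an unadjusted p under 0.05 by edgeR, beside 41 of 170 in all (24.1%). None passed after adjustment. The member row with the smallest p was Asp-GTC-1-5, at -1.26 (SE 0.43, adjusted p = 0.066).

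The NMES differences of the 2 genotypes were not shown to differ. For Asp-GTC, KlHET minus WT was -1.14 (SE 0.83, adjusted p = 0.39 by edgeR). The smallest unadjusted p of the member rows in this test was that of Asp-GTC-2-1, with -2.37 (SE 0.96, adjusted p = 0.22 by edgeR). No member row passed, against 9 of 341 tRNA rows (2.64%), and 2 member rows had an unadjusted p under 0.05, as did 67 rows in all (19.6%). No anticodon passed (0%), with 0 of the 4 members and 10 of 47 in all under 0.05 unadjusted. DESeq2 called no member row or anticodon, and no tRNA row or anticodon in all.

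tRNA-His reads the CAU and CAC codons and carries an extra G at its 5′ end that is added after transcription. Its level had the widest range of the 4. It was at 3332, 5607 and 16016 tRNA CPM in KlHET NMES libraries and at 2054, 8577 and 35872 in KlHET control libraries. In WT mice it was at 5834, 13888 and 31535 in NMES libraries and at 3952, 15899 and 87064.5 in control libraries. All groups overlapped. The log2 difference between NMES and control was -0.89 (SE 0.60, adjusted p = 0.31) in KlHET, -0.92 (SE 0.69, adjusted p = 0.69) in WT and -0.90 (SE 0.46, adjusted p = 0.21) over both, by edgeR.

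Between genotypes, His-GTG had negative log2 differences in both treatments that missed the threshold. The log2 difference was -1.31 (SE 0.64, adjusted p = 0.27 by edgeR) in NMES libraries, where 7 of 8 KlHET libraries were below the WT median, and -1.34 (SE 0.64, adjusted p = 0.11) in control libraries, where 6 of 8 were. Without WT control library 5 and KlHET control libraries 2 and 8 the control difference was -0.45. It passed when 1 library was left out, at -1.98 (adjusted p = 0.046) without WT NMES library 4, -2.13 (adjusted p = 0.044) without WT control library 1 and -1.77 (adjusted p = 0.042) without KlHET control library 6. The miR-122-5p of liver, to set beside these, had a median of 387 total CPM in KlHET NMES against 1076 in WT NMES libraries, and 467 in KlHET control against 1290 in WT control libraries. The sum of the 14 markers was lower in KlHET too, with medians of 1965 against 2572 in NMES and 1299 against 4178 in control libraries. By type, only the summed neuronal markers had a higher median in KlHET, and only in NMES libraries (75.9 against 44.6). The part of these markers in the His-GTG values was not tested.

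A single isodecoder carried the tRNA-His reads. His-GTG-2, with 8 rows that showed 2 profiles, made up 74.0% to 97.0% of His-GTG counts (median 93.8%), His-GTG-1 a median of 5.14% and His-GTG-3 of 1.54%. His-GTG-2 had 17 counts in KlHET control library 2 (10.8 total CPM) and 4301 in WT control library 5 (1269 total CPM). Its highest total CPM was 1471, in WT control library 3. The leading row, His-GTG-2-6, differed by -0.88 (SE 0.60, adjusted p = 0.35) between KlHET NMES and control libraries. In WT libraries the same row differed by -0.77 (SE 0.69, adjusted p = 0.74).

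tRNA-Tyr, which reads UAU and UAC and whose queuosine carries galactose, stayed within a narrow band after TMM scaling. It was at 6571, 8237 and 11646 tRNA CPM in KlHET NMES libraries and at 6119, 8105 and 16444 in KlHET control libraries, and at 7196, 9357 and 12762 in WT NMES libraries and 4878, 8202 and 10292 in WT control libraries. The log2 difference between NMES and control was -0.08 (SE 0.22, adjusted p = 0.85 by edgeR) in KlHET and 0.24 (SE 0.25, adjusted p = 0.77) in WT mice. KlHET minus WT was -0.11 (SE 0.23) in NMES and 0.20 (SE 0.23) in control libraries, with adjusted p of 0.87 and 0.51. Scaled to all RNA counts, these differences changed sign, except that between WT NMES and control libraries, which stayed above 0.

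The shares of the Tyr-GTA isodecoders had narrower ranges than those of Asp-GTC. Tyr-GTA-1 made up a median of 35.2% of Tyr-GTA counts (27.95% to 45.8%), Tyr-GTA-2 30.3%, Tyr-GTA-3 17.7%, Tyr-GTA-4 9.95% and Tyr-GTA-5 5.52%. The leading row, Tyr-GTA-1-4, differed by -0.11 (SE 0.25, adjusted p = 0.82) between KlHET NMES and control libraries and by 0.26 (SE 0.29, adjusted p = 0.78) between WT NMES and control libraries. Tyr-GTA-5-1 was the member row that passed between KlHET and WT control libraries, as 1 of 45 beside 69 of 341 rows in all (20.2%), of which 44 were higher (12.9%) and 25 lower (7.33%) in KlHET. It was at 133, 186 and 993 tRNA CPM in KlHET control libraries and at 72.8, 104 and 233 in WT control libraries, a log2 difference of 1.17 (SE 0.40, adjusted p = 0.039 by edgeR). KlHET control library 2 held the high value, and without it the difference was 0.58 (adjusted p = 0.21). Without WT control library 5 it was 0.66 (adjusted p = 0.23). The test was missed in 11 further refits, without WT NMES library 2 or 3, WT control library 1, 2, 3 or 6, KlHET NMES library 1 or 6, or KlHET control library 6, 7 or 8, at 0.76 to 1.15.

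In KlHET mice Tyr-GTA-3 had the largest positive NMES value among the 13 isodecoders counted once, at 0.59 (SE 0.21, adjusted p = 0.053 by edgeR). Its row Tyr-GTA-3-1 was at 511, 659 and 1089.6 tRNA CPM in KlHET NMES libraries and at 403, 476 and 571.2 in KlHET control libraries. The groups overlapped, and the log2 difference of 0.52 (SE 0.21, adjusted p = 0.092 by edgeR) missed the threshold. In WT mice it was -0.10 (SE 0.24, adjusted p = 0.94), and the difference between the genotypes was 0.62 (SE 0.32, adjusted p = 0.31). Of the 45 member rows, 42 had a negative difference in KlHET mice and 3 a positive one, against 238 and 103 of 341 rows. Counted once, 7 of the 13 isodecoders were negative and 6 positive, against 98 and 72 of 170.

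tRNA-Asn, which reads AAU and AAC, was the least counted, with 21 to 474 counts per library over its 13 rows and 5 to 90 with copies counted once. It was at 288, 699 and 1485 tRNA CPM in KlHET NMES libraries and at 256, 863 and 2144 in KlHET control libraries. In WT mice it was at 638, 929 and 1302 in NMES and at 126, 625.2 and 825 in control libraries, and all 6 WT NMES libraries were above the WT control median. The log2 difference between NMES and control was -0.23 (SE 0.37, adjusted p = 0.73 by edgeR) in KlHET and 0.75 (SE 0.43, adjusted p = 0.56) in WT mice. Asn-GTT-1 and Asn-GTT-3 had equal counts in 13 of 28 libraries with copies counted once, and the leading row Asn-GTT-3-1 differed by -0.11 (SE 0.38, adjusted p = 0.88) between KlHET NMES and control libraries.

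Between genotypes, none of the 4 queuosine anticodons passed. In NMES libraries 0 of 4 passed, beside 1 of 47 anticodons in all (2.13%), and by row 0 of 45 beside 0 of 341 (0%), where 1 member row and 29 rows (8.5%) had an unadjusted p under 0.05. That row was Asp-GTC-3-1, at 40.1, 150.1 and 242 tRNA CPM in KlHET NMES libraries and at 126, 243 and 475 in WT NMES libraries (log2 difference -0.94, SE 0.44, adjusted p = 0.39 by edgeR). In control libraries 0 of 4 anticodons passed, beside 11 of 47 (23.4%), with 7 higher (14.9%) and 4 lower (8.51%) in KlHET. Asp-GTC was 0.70 (SE 0.60, adjusted p = 0.38) and Asn-GTT 0.80 (SE 0.41, adjusted p = 0.12) above WT there on the log2 scale. The comparisons between NMES and control and those between genotypes share libraries and are not independent.

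Gly-GCC, Cys-GCA, Phe-GAA and Ser-GCT have G at the wobble position but no U next to it and are not substrates for queuine. In KlHET mice 1 of these 4 anticodons passed for NMES against control, Cys-GCA, and the medians of the log2 differences were -1.07 for these 4 and -0.56 for the 4 queuosine anticodons, against -0.46 over all 47. Ile-GAT, the other tested anticodon of this kind, was not on that list and was added after its values were seen. It had a log2 difference of 0.35 (SE 0.22, adjusted p = 0.28 by edgeR), and with it 1 of 5 passed and the median was -0.80. Among the 6 anticodons of Glu, Gln and Lys, 2 passed, with a median of -1.23. In WT mice 0 of the 4 and 0 of the 6 passed.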

How the data were processed

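Small RNA of plasma EVs was sequenced in 28 mouse libraries. Per the labels and the study's methods, the authors aligned single-end reads to mm10 with STAR 2.5.3a and counted them with COMPSRA 1.0.3, and they deposited 1 table of raw read counts. The authors' DESeq2 1.42.1 results were not used here. The 464 tRNA rows, and their sums for 55 anticodons, were each fitted with edgeR 4.0.16 (quasi-likelihood test, 4 groups, TMM over tRNAs, filterByExpr, R 4.3.3), which tested 341 rows and 47 anticodons. Of the 51 member rows 45 were tested. p-values were adjusted over all features tested, with a threshold of 0.05. The script was tested on simulated data.

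The members and lists were chosen with earlier results of these data known. Rows were named if they had the highest median of their anticodon, passed a test or had the smallest p of a comparison. Tyr-GTA-3, Asp-GTC-4 and the isodecoder shares were chosen after their values were seen. Alternatives were DESeq2 1.42.0, other scalings and filters, leaving out libraries and, chosen after seeing the data, isodecoders counted once. Depth was 531261 to 3389206 counts per library.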

Additional observations from a re-analysis of the deposited data

Results flagged for a closer look

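Of 20 checks for a library far from the rest of its group, each of 1 measure in 1 group, 3 found one. The checks reused the same groups and libraries and were not independent. The Asp-GTC and Tyr-GTA flags in KlHET control libraries fell on the same library. A chance rate of about 1 in 20 per check assumes normally distributed levels, which was not tested for these. The number found was therefore not weighed against chance. Asp-GTC reached 26238 tRNA CPM (counts per 1000000 tRNA counts after TMM scaling) in WT control library 5, against 2806 to 3741 in the other WT control libraries. It reached 49962.5 in KlHET control library 2, against 2882 to 14259 in the other KlHET control libraries. Tyr-GTA reached 16444 in KlHET control library 2, against 6119 to 10066 in the others. Per 1000000 counts of all RNA classes, KlHET control library 2 was the lowest of its group for Tyr-GTA, with 697.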

How the results depend on the processing

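No paired analysis was possible because the labels give no replicate numbers that tie libraries of different groups. Scaling to the size of all RNA classes moved the median log2 difference of all tRNA rows between KlHET NMES and control libraries by 0.50, to 0.03, and that between KlHET and WT NMES libraries by 0.34. The 14 member rows called in KlHET mice became 0 with DESeq2, with scaling to all RNA classes and without the 3 libraries. They also became 0 with 1 summed row per isodecoder, and 1 with TMM over all RNA classes or copies counted once (0 to 16 leaving out 1 library). Of all 341 tRNA rows, 54 passed in the main fit, 0 with DESeq2, 0 with scaling to all RNA classes and 36 with TMM over all RNA classes. With copies counted once, 23 of 170 isodecoders passed in all (13.5%). Over both genotypes, 0 became 13 with DESeq2, where 34 of 320 rows passed in all (10.6%), and with TMM over all RNA classes, where 40 of 341 did (11.7%). By edgeR with TMM over tRNAs 0 passed in all (0 to 13 leaving out 1). With copies counted once, 0 of 13 member isodecoders and 0 of 170 in all passed. Between KlHET and WT control libraries, 1 became 0 with DESeq2, scaling to all RNA classes, no filter and a filter of 10 counts in 6 libraries. It also became 0 without the 3 libraries and with copies counted once (0 to 13 leaving out 1). Of all tRNA rows, 44 were higher and 25 lower in the main fit. With DESeq2 these became 0 and 27, and with scaling to all RNA classes 2 and 11. With copies counted once, 42 of 170 isodecoders passed in all (24.7%). The 1 anticodon called in KlHET mice became 0 with DESeq2, scaling to all RNA classes, no filter, without the 3 libraries and with copies counted once (0 to 1 leaving out 1). So did that over both genotypes except with DESeq2 (0 to 1). Of all 47 anticodons, 9 passed in KlHET mice in the main fit, 0 with DESeq2 and 0 with scaling to all RNA classes. Over both genotypes these were 8, 7 and 0. Between KlHET and WT control libraries 0 to 1 anticodons were called leaving out 1. The median queuosine share was 0.518% of all counts. The causes were not tested.

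These differences changed sign. Asp-GTC in WT mice was 0.45 without the 3 libraries (-1.36 to 0.45 leaving out 1), and KlHET minus WT was 0.064 in NMES libraries when scaled to all RNA classes and -0.22 to 1.48 in control libraries leaving out 1. His-GTG for the difference of NMES effects was -0.031 scaled to all RNA classes and -0.86 without the 3 (-0.54 to 0.98). Asn-GTT in KlHET mice was 0.018 with DESeq2, 0.31 scaled to all RNA classes, 0.31 without the 3 and 0.047 counted once (-0.41 to 0.061), and KlHET minus WT in NMES libraries was 0.33 scaled to all RNA classes (-0.36 to 0.19). Tyr-GTA in KlHET mice was 0.15 with DESeq2, 0.37 scaled to all RNA classes, 0.077 with no filter, 0.16 without the 3 and 0.22 counted once (-0.15 to 0.19). In WT mice it was -0.19 to 0.42 leaving out 1, and over both genotypes -0.0065 with TMM over all RNA classes (-0.049 to 0.28). Its difference of NMES effects was 0.010 with DESeq2, 0.35 scaled to all RNA classes, 0.024 without the 3 and 0.13 counted once (-0.39 to 0.31). Its KlHET minus WT was 0.35 scaled to all RNA classes, 0.039 with TMM over all RNA classes and 0.025 counted once in NMES libraries (-0.19 to 0.26), and -0.10 with DESeq2, -0.0031 scaled to all RNA classes, -0.14 without the 3 and -0.11 counted once in control libraries (-0.10 to 0.25).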

Other observations

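Some members were seen in few libraries and were not tested. His-ATG, the 1 member without a wobble G in its gene, had 6 counts, all in KlHET NMES library 8, and a count of 0 in the other 27 libraries, which allows up to 0.885 to 5.65 total CPM (3 counts of the total). Tyr-GTA-6 had 42 counts in 8 libraries, of which 13 were in WT control library 6. Asn-GTT-4 had 12 counts in 4 libraries, of which 7 were in WT control library 5, and Asn-GTT-5 had 1 count in KlHET control library 7. Asn-GTT-2 had 169 counts, at most 13 in a library, and His-GTG-3 had 251.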
